A study of Mus musculus with 8 samples.

Results

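Oligodendrocyte lineage specification was followed through 8 genes in neural stem and progenitor cells grown from mouse embryonic stem cells. The genes were Olig1, Olig2, Nkx2-2, Sox10, Sox8, Pdgfra, Cspg4 and Gpr17, taken by name as a list and by no threshold on the measured values. Their probes were found by symbol through the transcript accession on the array. All 8 genes had a probe, 9 probes in all, and all 8 passed the filter on dim signal, among 13790 genes tested.

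The cells were grown as floating spheres in which control cells and cells overexpressing the transcription factor NFIA were mixed, and cell sorting parted the 2 cell types before RNA was taken. Control cells of primary spheres (PN_control) and NFIA cells of primary spheres (PN_NFIA) were at passage 0, day 6 of culture after embryoid bodies. Control cells (SN_control) and NFIA cells (SN_NFIA) of secondary spheres were at passage 1, day 12. Each of these 4 groups has 2 arrays, so the number of arrays limits the precision. The controls had thus shared their culture with NFIA cells. The promoter that drives NFIA, the number of clones in its line, the strain of the stem cells and the sorting marker are not given in the sources used here. Nothing in the labels says that replicates came from separate cultures, so p-values measure the spread between these samples, which may be technical.

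Levels are log2 signals relative to the array's own 75th percentile, so a level of 0 is a signal equal to that percentile. The share of spots well above background, controls left out, ran from 45.4% to 56.4% over the arrays. For 7 of the 8 samples the scanner file attached to the sample and the column of the authors' value table hold different arrays, and the assignment used here is that of the value table. Under it 5 of 8 arrays were closest to an array of their own group, against 0 of 8 with the files as attached. The source names also disagree with the titles: 4 arrays titled control carry the NFIA line there, and 2 arrays titled NFIA (PN_NFIA replicate 1 and SN_NFIA replicate 2) carry WT. The 2 passages sat in different rows of the slide and NFIA and control cells in different columns, so neither comparison can be told apart from slide position. Nfia itself had levels of -1.30 and -0.29 in PN_control, -0.23 and 0.94 in PN_NFIA, 1.01 and 0.63 in SN_control, and 1.70 and 1.63 in SN_NFIA. It differed between NFIA and control cells by 1.00 ± 0.32 (log2, SE) over both passages and did not pass the test (limma, adjusted p = 0.171). Nfia has 2 probes on the array, and the values are those of 1 probe. Whether that probe reads the introduced NFIA transcript is not given in the sources used here, so the values do not measure the overexpression. Neural stem cell markers were measured in the sorted cells, with 8 of 8 past the filter on dim signal.

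Oligodendrocytes are the myelin-forming glia of the central nervous system and arise from progenitors that carry the PDGF receptor alpha and the proteoglycan NG2. OLIG1, OLIG2 and NKX2-2 are transcription factors that specify this lineage in the neural tube, the SoxE factors SOX10 and SOX8 act with and after them, and GPR17 marks progenitors that have begun to differentiate. NFIA belongs to the nuclear factor I family, which promotes the switch of neural progenitors to glia and astrocyte formation, and NFIA and SOX10 are known to oppose each other in the choice between astrocytes and oligodendrocytes.

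Promoters are shown because NFIA, the factor overexpressed here, binds DNA through the half-site TTGGC, and the members differ in how many they hold. RefSeq promoter windows of 250 bases upstream of the start, on GRCm38.p6, were found for 5 of the 8 genes, namely Olig2, Sox8, Pdgfra, Cspg4 and Nkx2-2. The 3 windows below are those of Olig2 (chr16:91225300-91225549, plus strand), Sox8 (chr17:25570687-25570936, minus strand) and Cspg4 (chr9:56864854-56865103, plus strand), written 5′ to 3′ on the strand of the gene. Capitals mark the NFI half-site in either orientation, TTGGC or its complement GCCAA.
Olig2: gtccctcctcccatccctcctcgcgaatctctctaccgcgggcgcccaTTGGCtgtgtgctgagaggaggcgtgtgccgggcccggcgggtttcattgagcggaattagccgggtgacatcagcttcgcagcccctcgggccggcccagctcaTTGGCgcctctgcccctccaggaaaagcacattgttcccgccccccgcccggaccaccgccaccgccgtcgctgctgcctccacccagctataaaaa
Sox8: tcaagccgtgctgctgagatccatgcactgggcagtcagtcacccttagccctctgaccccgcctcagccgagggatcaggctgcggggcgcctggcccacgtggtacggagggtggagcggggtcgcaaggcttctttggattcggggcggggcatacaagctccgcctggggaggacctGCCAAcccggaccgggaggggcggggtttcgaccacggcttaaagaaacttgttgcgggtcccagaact
Cspg4: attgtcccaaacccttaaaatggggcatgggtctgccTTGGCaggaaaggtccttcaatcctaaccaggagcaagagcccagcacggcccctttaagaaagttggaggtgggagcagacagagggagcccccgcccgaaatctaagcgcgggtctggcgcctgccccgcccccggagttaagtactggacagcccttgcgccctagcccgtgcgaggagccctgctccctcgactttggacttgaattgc
Olig2 holds 2 half-sites, and Sox8, Cspg4 and Nkx2-2 hold 1 each. Pdgfra holds 0. The half-site stands in 4 of the 5 windows and in 41.5% of the 32841 mouse promoter windows of the same length. The full palindrome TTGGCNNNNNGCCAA, which contains the half-site on both strands, stands in 0 of the 5 and in 0.0365% of all windows. A match is a description of letters and not a measured binding site.

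Every one of the 8 genes had a higher mean level in secondary than in primary spheres, in control and in NFIA cells alike, and 4 of them (Olig1, Sox8, Pdgfra and Cspg4) passed the test over both cell types. With same-numbered arrays of a passage as a random replicate block 0 of 8 passed (limma, adjusted p = 0.0645 for Olig1, 0.096 for Cspg4, 0.101 for Pdgfra and 0.102 for Sox8). The comparison over both cell types was added after the values had been seen. Levels within the secondary groups were far apart, with Gpr17 differing by more than 6 log2 units between replicates of each cell type. No member passed the test for NFIA against control in either passage in the model of group means. The levels of the 8 genes on every array are given first, in the order transcription factors, SoxE factors, surface proteins.

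Olig1, a basic helix-loop-helix factor that promotes oligodendrocyte maturation, stood at -0.91 (replicate 1) and -0.18 (replicate 2) in PN_control, at -1.79 and 0.94 in PN_NFIA, at 2.15 and 4.10 in SN_control, and at 3.55 and 4.90 in SN_NFIA. All 4 secondary arrays lay above all 4 primary arrays. The order of the group means was SN_NFIA, SN_control, PN_NFIA and PN_control, and of these neighbours only SN_control and PN_NFIA had arrays that did not overlap. Olig2, the related factor that specifies motor neurons and oligodendrocyte progenitors, had levels of -0.77 and 0.26 in PN_control, -1.58 and 0.33 in PN_NFIA, 0.54 and 2.48 in SN_control, and 1.94 and 3.48 in SN_NFIA. Its lowest secondary array, SN_control replicate 1, lay just above the highest primary array. The order from the top was SN_NFIA, SN_control, PN_control and PN_NFIA, with a break only between the secondary and the primary groups.

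Nkx2-2, a homeodomain factor of the ventral neural tube that also drives oligodendrocyte differentiation, had the smallest gap between passages. Its brighter probe gave 0.23 and 1.18 in PN_control, -0.73 and 0.90 in PN_NFIA, 1.24 and 2.02 in SN_control, and 1.07 and 1.61 in SN_NFIA. SN_NFIA replicate 1 lay below the higher PN_control array, and no neighbouring groups in the order of means (SN_control, SN_NFIA, PN_control, PN_NFIA) differed beyond their arrays' spread. The second probe gave -0.84 and 0.28, -1.73 and -0.35, -0.05 and 0.55, and 0.48 and 1.06 in the same order of arrays. The 2 probes disagreed in sign for NFIA against control in secondary spheres, where the brighter gave -0.29 ± 0.60 and the second 0.52 ± 0.57.

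Sox10, the SoxE factor that activates myelin genes, had levels of -3.22 and -2.71 in PN_control and -3.08 and -2.10 in PN_NFIA. In secondary spheres it reached -0.35 and 3.90 in SN_control and -0.60 and 3.10 in SN_NFIA. Replicate 2 of each secondary group lay far above replicate 1, and even the lower replicate lay above every primary array. Sox8, a SoxE factor expressed in glial progenitors, was not well above background on either PN_control array (-5.28 and -6.22). It stood at -2.85 and -0.99 in PN_NFIA, at -2.16 and 0.50 in SN_control, and at 0.32 and 1.04 in SN_NFIA. PN_NFIA and SN_control overlapped, while PN_control lay below all other groups.

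Pdgfra, the receptor through which PDGF sustains progenitor division, stood at -1.85 and -2.73 in PN_control, at -0.56 and -1.36 in PN_NFIA, at 0.67 and 2.94 in SN_control, and at 0.08 and 2.30 in SN_NFIA. The secondary arrays all lay above the primary ones, and within primary spheres the NFIA arrays lay above the control arrays. Cspg4, which encodes the NG2 proteoglycan, was not well above background in PN_control (-4.20 and -4.75). It had levels of -3.24 and -1.98 in PN_NFIA, -2.14 and -0.19 in SN_control, and -0.96 and -0.41 in SN_NFIA. SN_control replicate 1 fell within the range of PN_NFIA. Gpr17, a G protein-coupled receptor of committed progenitors, was not well above background in PN_control (-4.88 and -4.93) and stood at -3.85 and -3.31 in PN_NFIA. It reached 0.54 and 7.45 in SN_control and -1.12 and 5.51 in SN_NFIA. Gpr17 had the widest spread between replicates of the 8 genes in secondary spheres.

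**Figure D1:**
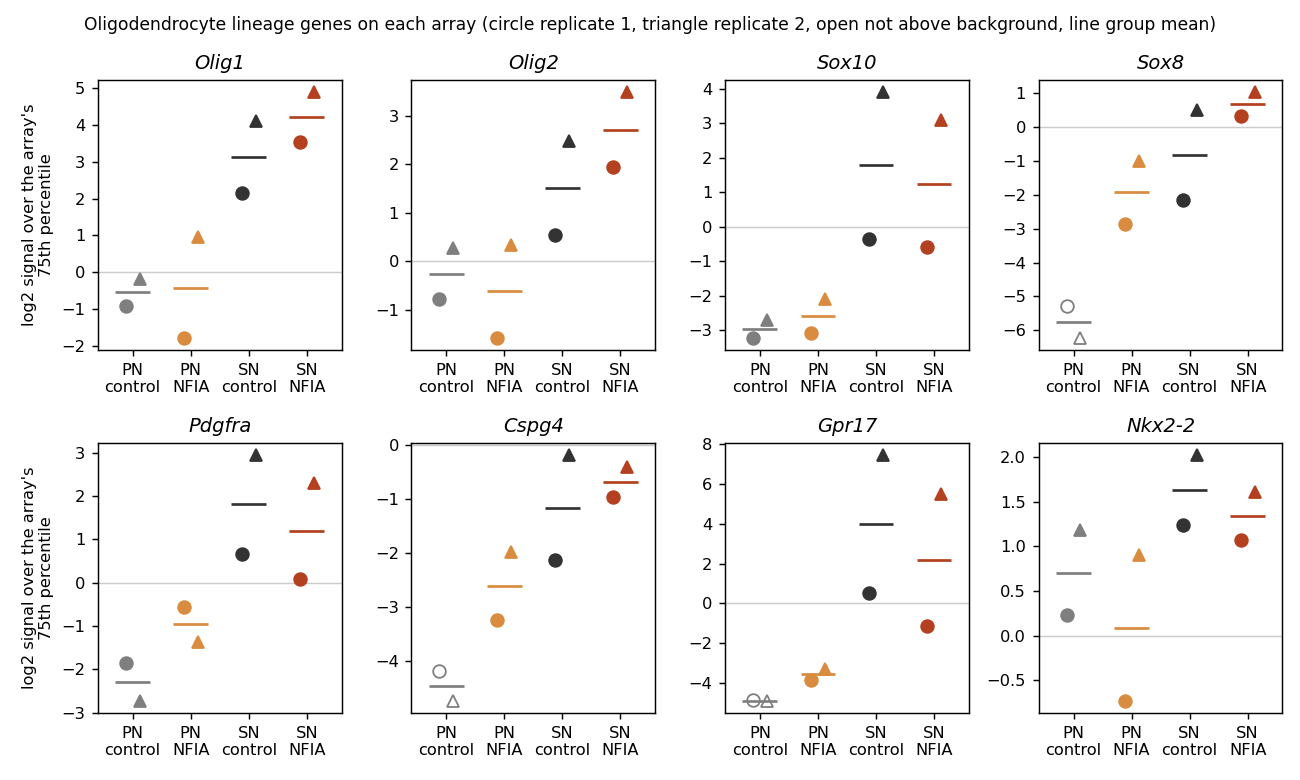
Level of each gene (log2 signal over the array's 75th percentile) on the 8 arrays, by group, with circles for replicate 1, triangles for replicate 2, open symbols for arrays not well above background and lines for group means (n = 2). The secondary groups sit above the primary groups in mean for every gene, and the replicates of Sox10 and Gpr17 in secondary spheres lie apart by more than 3 log2 units.

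The comparison of passages asks how these genes differ between secondary and primary spheres. Over both cell types (4 arrays against 4), Olig1 was higher by 4.16 ± 0.70 (log2, SE), a 17.9-fold difference (limma, adjusted p = 0.0231). Sox8 rose by 3.76 ± 0.76 (adjusted p = 0.0318), Pdgfra by 3.12 ± 0.71 (adjusted p = 0.0427) and Cspg4 by 2.62 ± 0.52 (adjusted p = 0.031). Folds were 13.6 for Sox8, 8.69 for Pdgfra and 6.15 for Cspg4, with 2 of the 4 primary arrays above background for Sox8, Cspg4 and Gpr17. Just beyond the threshold lay Sox10 at 4.29 ± 1.05 (adjusted p = 0.0508), Gpr17 at 7.34 ± 1.81 (adjusted p = 0.0518) and Olig2 at 2.55 ± 0.67 (adjusted p = 0.0599). Nkx2-2 differed by 1.09 ± 0.41 (adjusted p = 0.141).

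Passage over both cell types was added as a comparison after the values had been seen. The members were chosen with earlier results of these data known, so the shares below are descriptions. The 4 of 8 members that rose stand against 3.34% of all tested genes called higher in this comparison and 3.75% called lower. With the random block these became 0 of 8 members and 0.138% of genes called higher. At an unadjusted p under 0.05, 8 of 8 members passed, against 26.3% of all genes. The median difference was 3.44 for the members and -0.08 for all genes. For Olig1, Olig2, Sox10, Pdgfra and Gpr17 the lowest secondary array lay above the highest primary array, 5 of 8 members against 4.47% of genes, while Sox8, Cspg4 and Nkx2-2 overlapped.

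With the random block the adjusted p of the 8 members ran from 0.0645 to 0.226 (limma). The calls also depended on single arrays: leaving out PN_control replicate 1, PN_control replicate 2, PN_NFIA replicate 1 or SN_NFIA replicate 2 left 0 members past the test, and leaving out SN_NFIA replicate 1 left 2, whereas 7 passed without SN_control replicate 1 (6% of genes then called higher and 5.97% lower). With the scanner files as attached the differences of Olig1, Sox8 and Cspg4 turned to -1.02, -0.72 and -0.53. Those of Olig2, Nkx2-2, Sox10 and Gpr17 were also below 0 there, at -0.835, -0.705, -0.514 and -0.194. That of Pdgfra was 0.41.

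Within control cells alone (2 arrays against 2), 0 of 8 members passed the test in limma, against 0.696% of genes called higher, and 6 of 8 passed at an unadjusted p under 0.05, against 13.4% of genes. The differences were 3.67 ± 1.01 for Olig1, 1.76 ± 0.91 for Olig2, 4.74 ± 1.55 for Sox10, 4.09 ± 0.93 for Pdgfra and 0.92 ± 0.60 for Nkx2-2. As Sox8, Cspg4 and Gpr17 were not well above background in PN_control, their secondary levels are given as bounds against the lowest signal well above background on each array: at least 11.4-fold higher for Sox8, at least 8.42-fold for Cspg4 and at least 322-fold for Gpr17. With SN_control replicate 1 alone these bounds were 4.5-fold for Sox8, 4.29-fold for Cspg4 and 29.4-fold for Gpr17. Adjusted p ran from 0.0836 for Sox8 to 0.557 for Nkx2-2. All 8 members lay higher with no overlap, as did 16.3% of all genes, and their median difference was 3.88 against -0.12 over all genes. Without SN_control replicate 1, 3 members (Sox8, Pdgfra and Cspg4) passed, in a fit in which 434 of all genes passed against 111 with all arrays.

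Within NFIA cells, likewise, 0 of 8 members passed (limma, 0.544% of genes called higher), and 5 of 8 passed at an unadjusted p under 0.05 (21.3% of genes). Olig1 differed by 4.65 ± 1.01 (adjusted p = 0.068), Olig2 by 3.33 ± 0.91, Sox10 by 3.83 ± 1.55 and Sox8 by 2.61 ± 0.95. The surface proteins differed by 2.15 ± 0.93 (Pdgfra), 1.93 ± 0.69 (Cspg4) and 5.77 ± 2.57 (Gpr17), and Nkx2-2 by 1.26 ± 0.60. All 8 members again lay higher with no overlap, against 25.8% of all genes, with a median of 2.97 against -0.05.

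**Figure D2:**
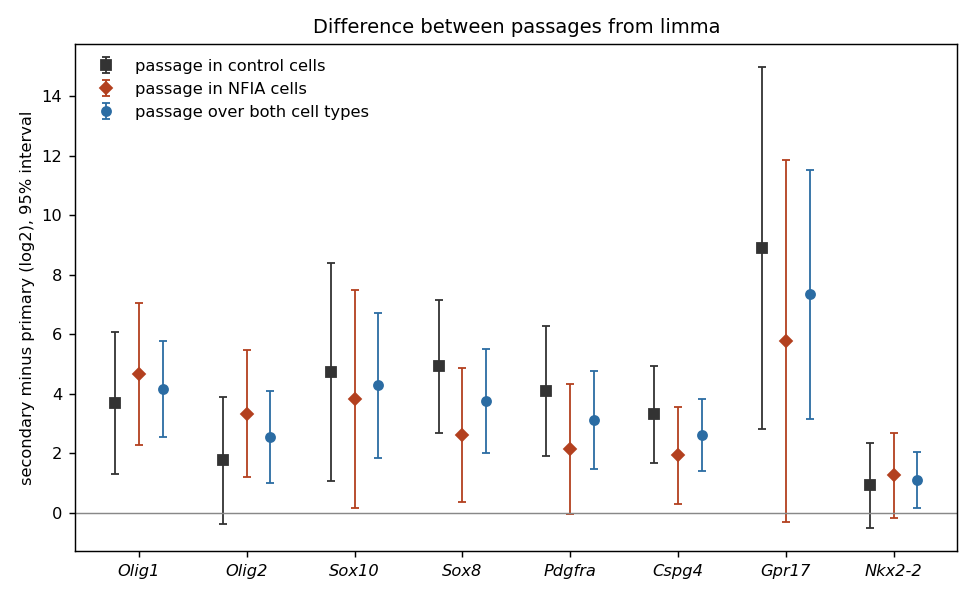
Difference between secondary and primary spheres (log2, points with 95% intervals from limma) for each gene in control cells, in NFIA cells and over both. All points lie above 0, the intervals over both cell types exclude 0 for the 8 genes before adjustment, and those of Gpr17 are the widest; in control cells the points of Sox8, Cspg4 and Gpr17 rest on primary signals not well above background.

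Secondary replicates of the same cell type differed strongly, and in the same direction in both cell types. Gpr17 was higher on replicate 2 than on replicate 1 by 6.91 in SN_control and 6.63 in SN_NFIA (log2 differences). Sox10 was higher by 4.26 and 3.70, and Pdgfra by 2.26 and 2.22. The gap was thus nearly equal in the 2 cell types for these genes. Olig2 differed by 1.94 and 1.55, and Olig1 by 1.95 and 1.35. Sox8 had gaps of 2.67 in control but 0.72 in NFIA cells, Cspg4 of 1.94 and 0.55, and Nkx2-2 of 0.78 and 0.55. In both cell types replicate 2 exceeded replicate 1 by more than 1 log2 unit for 5 of 8 members, against 3.57% of all genes, and by more than 2 for 3 of 8 (Gpr17, Sox10 and Pdgfra), against 0.645%. The median gap of the members was 2.11 in control and 1.45 in NFIA cells, and that of all genes 0.04 and -0.05. In bulk RNA of this kind, fewer cells of a type and less RNA per cell cannot be told apart. Same-numbered arrays of a passage deviated together over all genes (r = 0.484 in secondary and 0.445 in primary spheres), so the gaps of the 2 cell types cannot be counted as independent of each other.

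Genes of later oligodendrocyte stages were also far apart between the secondary replicates. Among 14 tested genes of differentiating oligodendrocytes and myelin, 8 exceeded 1 log2 unit in both cell types (among them Bcas1, Cldn11, Cnp, Mag, Mal, Sirt2 and Ugt8a), and the gap was larger in control cells for 12 of 14 (median 3.50 in control and 1.56 in NFIA cells, a difference that was not tested). The gap was also larger in control cells for 8 of 8 members, so this is not particular to the later genes. Mag, a myelin adhesion protein, stood at -3.91 (not well above background) and 5.67 in SN_control and at 0.02 and 1.32 in SN_NFIA. Cldn11, the tight junction protein of myelin, had gaps of 5.37 and 2.41. Enpp6 and Opalin, genes of newly formed and myelinating oligodendrocytes that did not pass the filter on dim signal, were above background only on replicate 2 of SN_control and of SN_NFIA. Myrf, the regulator of myelin genes, was above background on SN_control replicate 2 alone. Over the same arrays 0 of 9 neuron markers, 5 of 10 astrocyte markers and 5 of 16 other progenitor genes exceeded 1 log2 unit in both cell types. The summed level of the neuron markers, in units of the array's 75th percentile, was 207 on SN_control replicate 1 and 86.7 on replicate 2, and 63.9 and 71.5 in SN_NFIA. That of the astrocyte markers was 57.9 and 225.2 in SN_control and 494.1 and 861.9 in SN_NFIA. The summed level of the neuron markers was thus lower on replicate 2 in SN_control and not in SN_NFIA. The median gap of the 9 neuron markers was below 0 in both, at -0.731 in SN_control and -0.685 in SN_NFIA. The part of other cell types in the gap was not tested.

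**Figure D3:**
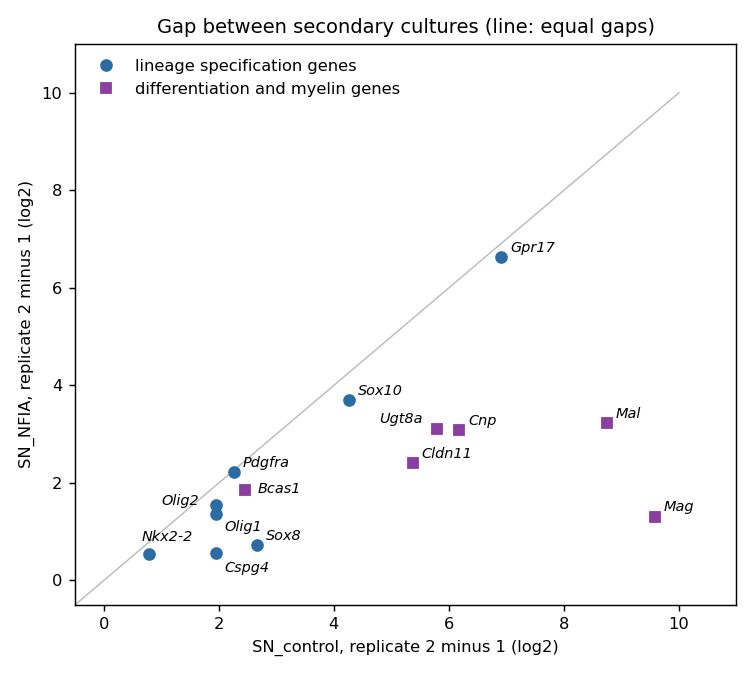
Log2 difference of replicate 2 from replicate 1 in SN_control (x axis) and in SN_NFIA (y axis), for the 8 lineage genes (circles) and for 6 differentiation and myelin genes picked after their values were seen (squares). Gpr17, Sox10 and Pdgfra lie close to the line of equal gaps, and Mag and Mal lie below it; Mag and Mal were not well above background on SN_control replicate 1.

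The comparison of NFIA with control cells asks which of these genes differ with NFIA overexpression. Over both passages, 0 of 8 members passed the test in limma, against 1.75% of genes called higher and 0.189% called lower, and 1 of 8 (Sox8) passed at an unadjusted p under 0.05, against 17.7% of genes. Sox8 differed by 2.67 ± 0.76 (adjusted p = 0.133, 95% interval 0.92 to 4.43), on the higher side with NFIA in 4 of 4 same-numbered pairs. The PN_control signals of Sox8 were not well above background, so this difference is not exact. Under the alternatives run it ranged from -1.4 to 3.44, the highest being that without SN_control replicate 2. Cspg4 differed by 1.17 ± 0.52 (adjusted p = 0.297). Olig1 differed by 0.61 ± 0.70, Olig2 by 0.42 ± 0.67 and Pdgfra by 0.36 ± 0.71, and Sox10, Gpr17 and Nkx2-2 by -0.07 ± 1.05, -0.24 ± 1.81 and -0.45 ± 0.41. The interval for Gpr17, from -4.43 to 3.95, leaves room for large differences in both directions.

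In primary spheres 0 of 8 members passed (limma, 0.312% of genes called higher and 0% lower), and Sox8 and Cspg4, 2 of 8, passed at an unadjusted p under 0.05 (9.56% of genes). Against PN_control, where it was not well above background, Sox8 was at least 5.33-fold higher in PN_NFIA (adjusted p = 0.2), Cspg4 at least 3.08-fold (adjusted p = 0.442) and Gpr17 at least 1.69-fold. Pdgfra differed by 1.33 ± 0.93, with both PN_NFIA arrays above both PN_control arrays. These 4 genes did not overlap between the groups, as was the case in the same direction for 22.2% of all genes. Sox10 (0.38 ± 1.55), Olig1 (0.12 ± 1.01), Olig2 (-0.37 ± 0.91) and Nkx2-2 (-0.62 ± 0.60) overlapped.

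In secondary spheres 0 of 8 members passed in limma (0.479% of genes called higher and 0.428% lower), 0 of 8 passed at an unadjusted p under 0.05 (15% of genes), and all 8 overlapped between the groups. Sox8 (1.51 ± 0.95), Olig2 (1.21 ± 0.91), Olig1 (1.10 ± 1.01) and Cspg4 (0.48 ± 0.69) were on the higher side in NFIA cells. Nkx2-2 (-0.29 ± 0.60), Sox10 (-0.53 ± 1.55), Pdgfra (-0.62 ± 0.93) and Gpr17 (-1.81 ± 2.57) were on the lower side. With each same-numbered pair of arrays as a replicate block, which takes the gap between replicates out of the error, 1 of 8 members passed: Gpr17 fell by 1.81 ± 0.23 in NFIA cells (limma, adjusted p = 0.035), a fit in which 1.93% of genes were called lower.

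Within same-numbered pairs the sign of the NFIA difference varied between genes and, for some, between passages. The PN_control signals of Gpr17, Sox8 and Cspg4 were not well above background, so their differences in primary pairs are not exact, and the bounds above stand for their size. Gpr17 differed between NFIA and control by 1.04 and 1.61 in the primary pairs and by -1.66 and -1.95 in the secondary pairs. Pdgfra differed by 1.29 and 1.37 in primary and by -0.59 and -0.64 in secondary pairs, and Sox10 by 0.14 and 0.61 and by -0.25 and -0.81. These 3 of 8 genes were higher with NFIA in both primary pairs and lower in both secondary pairs, as were 5.78% of all genes. Olig2 went from -0.80 and 0.07 in primary pairs to 1.40 and 1.01 in secondary pairs, and Olig1 from -0.87 and 1.12 to 1.40 and 0.80. Sox8 was higher with NFIA in every pair, by 2.43 and 5.23 and by 2.49 and 0.54. Cspg4 differed by 0.95, 2.76, 1.18 and -0.21, and the brighter probe of Nkx2-2 by -0.96, -0.28, -0.17 and -0.41. The second Nkx2-2 probe had the other sign in secondary spheres, at 0.52 ± 0.57 over the group means. The contrast of the secondary with the primary NFIA effect passed the test for 0 of 8 members and 0% of genes (limma; 0 of 8 members and 6.66% of genes at an unadjusted p under 0.05). It was -3.13 ± 3.63 for Gpr17 (adjusted p = 0.966, and 0.081 with the replicate block), -1.95 ± 1.31 for Pdgfra and -0.90 ± 2.19 for Sox10. For Sox8 it was -2.32 ± 1.34, for Cspg4 -1.38 ± 0.97, for Olig2 1.57 ± 1.28, for Olig1 0.97 ± 1.43 and for Nkx2-2 0.33 ± 0.85. By the second Nkx2-2 probe it was 1.27 ± 0.80.

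**Figure D4:**
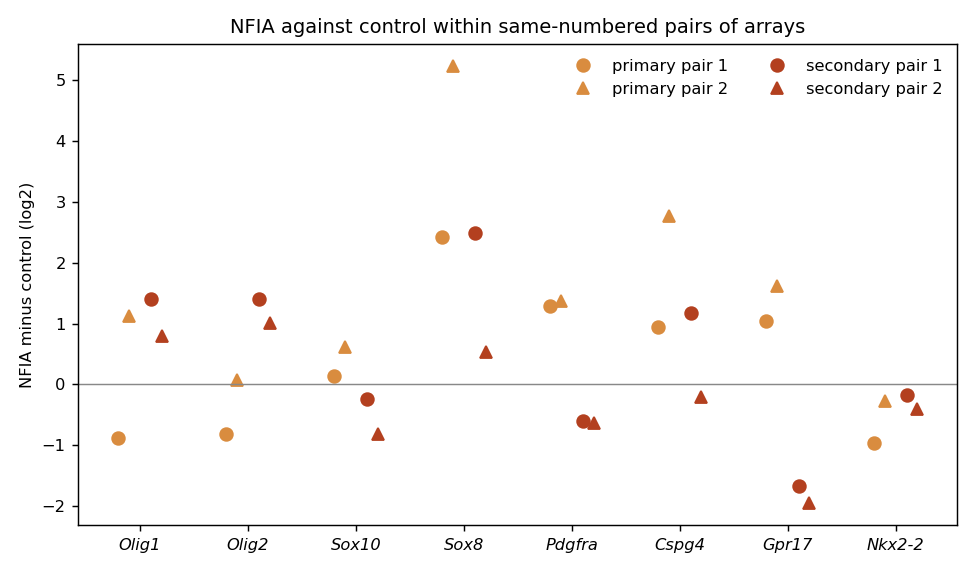
NFIA minus control (log2) within each same-numbered pair of arrays for the 8 genes, with primary pairs in orange and secondary pairs in red, circles for pair 1 and triangles for pair 2. Sox8 lies above 0 in all 4 pairs and the brighter probe of Nkx2-2, the one drawn, below 0. Pdgfra, Gpr17 and Sox10 lie above 0 in the primary and below 0 in the secondary pairs. The control signals of Sox8, Cspg4 and Gpr17 in primary pairs were not well above background.

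Other genes of the pathway were read from lists of lineage genes. Among 16 tested genes of oligodendrocyte progenitors beyond the 8, 3 rose and 0 fell with passage over both cell types, with a median of 0.66. Of all genes 3.34% were called higher and 3.75% lower in that comparison. Cspg5, a proteoglycan of the progenitor surface, rose by 1.87 ± 0.37 (adjusted p = 0.0302), Nxph1, a secreted neurexin ligand, by 1.36 ± 0.28 (adjusted p = 0.0337), and Omg, a glycoprotein of oligodendrocytes, by 5.73 ± 1.32 (adjusted p = 0.0436, above background on 1 of 4 primary arrays). Of the 14 differentiation and myelin genes 0 rose in limma (6 passed at an unadjusted p under 0.05, in either direction), with a median of 1.06 over the list. Among 14 tested growth factors and receptors only the BMP ligand gene Bmp2 passed and rose by 1.40 ± 0.33, and Pdgfa, the ligand of PDGFRA, differed by 1.07 ± 0.49 (adjusted p = 0.213). Of 9 tested repressors of oligodendrocyte differentiation 3 rose, all of them nuclear factor I genes: Nfix by 4.36 ± 0.48 (adjusted p = 0.0111), Nfib by 1.65 ± 0.38 and Nfia by 1.46 ± 0.32. Of the 21 genes of these and the marker lists below that passed for passage over both cell types, 2 (Nfix and Slc17a6) passed with same-numbered arrays of a passage as a random block.

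Few genes of these lists passed the test for NFIA against control. In secondary spheres the myelin basic protein gene Mbp fell by 2.06 ± 0.31 in NFIA cells (adjusted p = 0.0419), 1 of 14 differentiation genes. Its levels were 1.93 and 2.46 in SN_control and 0.17 and 0.11 in SN_NFIA, with no overlap. Mbp also fell by 1.88 ± 0.31 from primary to secondary NFIA cells (adjusted p = 0.0394). Id3, an inhibitor of helix-loop-helix factors, rose by 2.15 ± 0.24 with NFIA in secondary spheres (adjusted p = 0.0221), from 2.54 and 2.75 in SN_control to 4.74 and 4.86 in SN_NFIA. Over both passages the Notch effector Hes1 rose by 1.54 ± 0.25 in NFIA cells (adjusted p = 0.0295). In primary spheres 0 of 16 progenitor, 0 of 14 differentiation, 0 of 14 growth factor and 0 of 9 repressor genes passed in limma, and 0, 0, 4 and 3 of them passed at an unadjusted p under 0.05, against 9.56% of all genes. The PDGF receptor beta gene Pdgfrb (1.99 ± 0.35, adjusted p = 0.0999) and Hes1 (1.25 ± 0.35, adjusted p = 0.273) had the smallest p of the last 2 lists there.

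Pdgfra and Cspg4 are also expressed by mesenchymal and mural cells, and markers of such cells were set beside them. Of 11 tested markers 3 rose with passage over both cell types, against 3.34% of all genes called higher in limma. They were the collagen genes Col1a1 by 3.73 ± 0.71 (adjusted p = 0.0281) and Col3a1 by 2.78 ± 0.62 (adjusted p = 0.0397), and the proteoglycan gene Dcn by 3.15 ± 0.43 (adjusted p = 0.0156). Of the 11 differences 9 were above 0, and those of the contractile genes Acta2 and Tagln were below 0, at -0.71 and -1.07. Tagln fell by 1.74 ± 0.24 with passage in NFIA cells (adjusted p = 0.027). The summed level of the 11 genes, in units of the array's 75th percentile, was 6.19 to 9.46 in PN_control, 21.6 to 31.3 in PN_NFIA, 67.4 to 110.4 in SN_control and 67.9 to 83.1 in SN_NFIA. The pericyte markers Rgs5 and Abcc9 were above background on 0 of 8 arrays. With NFIA over both passages, 3 of the 11 rose, against 1.75% of all genes called higher. Prrx1 rose by 1.88 ± 0.24, Acta2 by 1.68 ± 0.31 and Kcnj8 to at least 1.46-fold. Kcnj8 was above background on the 4 NFIA arrays alone and passed the filter on dim signal only through them. In primary spheres 0 of the 11 passed the test for NFIA against control (0.312% of all genes called higher). At an unadjusted p under 0.05, 10 of 11 passed, all higher, against 9.56% of all genes in either direction. Kcnj8 is among these 10. The part of such cells in the levels of Pdgfra and Cspg4 was not tested.

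Markers of other cell types were set beside the members in the same way. Sox10 and Sox8 are also genes of the neural crest, of whose 9 markers 1 rose with passage over both cell types (Ets1 by 1.79 ± 0.34) and 2 fell (Pax3 by 2.61 ± 0.54 and Tfap2b by 2.36 ± 0.55). Their summed level was 5.42 to 12.7 in PN_control, 6.13 to 12.5 in PN_NFIA, 10.5 to 12.8 in SN_control and 7.96 to 9.79 in SN_NFIA. Olig2 and Nkx2-2 also mark the ventral neural tube, of whose 7 tested markers 0 passed in limma for passage or for NFIA over all 8 arrays (2 and 1 at an unadjusted p under 0.05). Of 5 tested endoderm markers 0 passed for passage over both cell types (1 at an unadjusted p under 0.05). For NFIA against control, 1 of these, Sox7, was called higher over both passages and in secondary spheres (limma, 1.75% and 0.479% of all genes). Sox7 was above background on the 4 NFIA arrays alone and passed the filter on dim signal only through them. In primary spheres 0 of the 5 passed, and 3 did at an unadjusted p under 0.05 (9.56% of all genes). Gata4, Gata6 and Afp, not tested, were above background on PN_NFIA replicate 1 alone. Astrocyte markers rose with passage in 4 of 10, Sparcl1 by 3.05 ± 0.51, Aldh1l1 by 2.56 ± 0.57 and Slc1a3 by 1.52 ± 0.35, and Gfap to at least 2.22-fold. Gfap was above background on the 2 SN_NFIA arrays alone, so its call rests on that group. Their summed level was 20.3 to 26.5 in PN_control, 69.2 to 209.9 in PN_NFIA, 57.9 to 225.2 in SN_control and 494.1 to 861.9 in SN_NFIA. Of 9 neuron markers 2 fell with passage, Slc17a6 by 3.61 ± 0.35 (not well above background on either SN_NFIA array) and Stmn2 by 1.69 ± 0.37. Of 8 neural stem cell markers, 1 fell, Pax6 by 2.14 ± 0.30. For NFIA over both passages, 1 of the 10 astrocyte markers was called in limma (Sparcl1, higher, 1.75% of all genes). Of the 9 neuron and 8 stem cell markers 0 were called. At an unadjusted p under 0.05, 5 astrocyte, 4 neuron and 0 stem cell markers passed, against 17.7% of all genes. The part of these cell types in the differences of the 8 genes was not tested.

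The genes whose level followed each member most closely over the 8 arrays were taken by Pearson's r, as a description of arrays that share passage and culture. Sox10 and Gpr17 were closest to each other of all genes tested (r = 0.992). Next came Cmtm5 for Sox10 (r = 0.988) and Tnr, a matrix glycoprotein gene, for both (r = 0.985 with Sox10 and 0.990 with Gpr17). Cspg4 and Sox8 shared Igf1 (r = 0.984 and 0.985), the gene of insulin-like growth factor 1, and Ttyh2 (r = 0.983 and 0.985), and correlated with each other at r = 0.983. Olig1 lay closest to Atrn (r = 0.991) and Cspg5 (r = 0.987), and Olig2 to Cspg5 (r = 0.975). Pdgfra lay closest to Fgf12 (r = 0.976), and Nkx2-2 to Nanos1 (r = 0.971). Among the members the lowest correlations were those of Nkx2-2 with Sox8 (r = 0.477) and with Pdgfra (r = 0.557).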

How the data were processed

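RNA of 8 samples, sorted NFIA and control cells of primary and secondary spheres, was hybridised to 1-colour Agilent arrays, 1 array per sample and 8 arrays on 1 slide. Per the labels, Cy3 targets were made from 50 ng of RNA. The scanner files deposited by the authors hold the processed intensity of each spot, made by Feature Extraction 10.5.1.1 per the file headers, with flags of other kinds (0 or 1) for signal above background and outliers. The submitters' processing notes name version 10.7.3.1. The table of values deposited by the authors is in log2, centred on each probe's median, and gave the assignment of arrays to samples: the lowest correlation of a column with its matching scanner file was r = 0.99988, and the highest with any other file was r = 0.338. Intensities were taken to log2 and each array's 75th percentile was subtracted. A probe was kept if both arrays of any group were well above background, 126 probes with outlier flags were left out, and 26010 probes had a symbol. The brightest probe stood for a gene.

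Tests used limma (version 3.58.1, R 4.3.3) and a Benjamini-Hochberg adjusted p under 0.05 over 13790 genes. A model of 4 group means gave the comparisons within a passage or a cell type, and an additive model gave those over all 8 arrays. The test was checked on simulated arrays. The members and lists were chosen with earlier results of these data known, and passage over both cell types was added after the values had been seen. Named are the 8 members and, of each list, the genes past the test (4 at most) or else that of smallest p, though not every gene that meets this is reported here. Pdgfa and the myelin genes named for the gap between replicates were chosen after their values were seen. Replicate numbers were taken to pair NFIA with control arrays, since deviations from group means correlated between same-numbered arrays (r = 0.445 in primary and 0.484 in secondary spheres), and not arrays of different passages (r = -0.188 in control and 0.042 in NFIA cells). A lower side not above background on any array was raised to the lowest signal above background on each array, and the ratio is given as at least a fold. Normexp, an alternative, used the median spot signal in place of the mean.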

Additional observations from a re-analysis of the deposited data

Results flagged for a closer look

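For 3 genes every primary pair of same-numbered arrays was higher with NFIA and every secondary pair lower. The difference of the NFIA effect, secondary minus primary, was -3.13 for Gpr17, -1.95 for Pdgfra and -0.90 for Sox10 (log2). The test of that difference was passed by none of the 3 in limma (adjusted p = 0.966 for Gpr17, 0.921 for Pdgfra and 0.991 for Sox10), and with the replicate block the adjusted p was 0.081, 0.106 and 0.358. The control signal of Gpr17 in primary spheres was not well above background. Of all genes 5.78% had this pattern of signs and 8.21% the opposite one.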

How the results depend on the processing

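With 2 arrays in each group, calls changed when single arrays were left out. For passage over both cell types, where 4 members passed, leaving out 1 array gave between 0 and 7 members. For passage in control cells the range was 0 to 3, for passage in NFIA cells and for NFIA over both passages 0 to 1, and for NFIA within a passage and the difference of effects 0. For passage over both cell types 1 member passed with no filter on dim probes, 1 with a replicate block across passages, and 0 each with the random block, the files as attached, and without the 2 arrays titled NFIA that carry a WT source name. The replicate block gave 1 member for NFIA in secondary spheres, and the block crossed between passages 1 (Sox8) for passage in control cells. The block changed no other call of a member in the comparisons of NFIA with control. With the files as attached, passage over both cell types reversed for Olig1 (-1.02), Sox8 (-0.72) and Cspg4 (-0.53). It was also below 0 for Olig2 (-0.835), Nkx2-2 (-0.705), Sox10 (-0.514) and Gpr17 (-0.194), and 0.41 for Pdgfra. The cause was not tested. In all other alternatives run, 136 of 136 member values for that comparison were above 0. Of 1024 member values under alternatives 892 kept their direction and their side of the threshold.

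Counts over all genes moved as well. Leaving out 1 array gave 51 to 1650 genes for passage over both cell types (978 with all arrays), 8 to 434 for passage in control cells (111), 0 to 709 for passage in NFIA cells (261), 33 to 355 for NFIA over both passages (267), 0 to 85 in primary (43) and 6 to 442 in secondary spheres (125), and 0 to 29 for the difference of effects (0). In this order of the first 6 comparisons, no filter gave 451, 52, 71, 143, 0 and 23, the replicate block 158, 34, 4, 352, 70 and 643, and leaving out the arrays with a WT source name 0, 0, 0, 67, 0 and 0. The random block gave 51 genes for passage over both, and the crossed block 52 for passage in control cells. Only the groups compared gave 0 for passage in control cells, 34 in NFIA cells, and 136 and 0 for NFIA in primary and secondary spheres. Normexp gave 61 for passage in control cells and 0 for NFIA in primary spheres, and quantile normalization 19 there. Attached files, in all comparisons, and groups by source name, in those of NFIA, gave 0.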
